A study of Anser cygnoides with 6 samples.

Results

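The genes described here are 8 members of the apoptosis machinery, through which follicles are lost in atresia. They were chosen by name, with earlier results of these data known: *FAS*, *CASP8*, *CASP9*, *CASP6*, *BCL2*, *BCL2L1*, *DIABLO* and *CIDEA*. Of these, 7 were found among the 14696 genes of the ovary transcriptome of the swan goose, *Anser cygnoides*, and 1, *CASP8*, was not analysed here. The broody group comprised 3 libraries from geese labelled with the developmental stage broodiness, which had been put through forced moulting and short illumination. The reproductive group comprised 3 libraries from geese at the stage of reproduction. All geese were reared to 40 weeks of age under an artificial programme of 11 h of light and 13 h of dark, per the labels, so the stage cannot be told apart from the moulting treatment, nor from light if it differed. The labels name neither the part of the ovary sampled nor separate birds for the libraries of a group, and p-values then measure only the spread between these samples, which may be technical.

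Atresia is the loss of an ovarian follicle before ovulation, and in birds as in mammals it proceeds largely through apoptosis of the granulosa cells that surround the oocyte. Apoptosis can start at a death receptor on the cell surface, such as FAS, which recruits the adaptor FADD and the initiator caspase-8. It can also start at the mitochondrion, where cytochrome c is released and activates caspase-9 on a scaffold of APAF1, a step that BCL2 and BCL2L1 hold back. Both routes end in effector caspases such as caspase-6, which in turn cut proteins throughout the cell. Inhibitor of apoptosis proteins restrain caspases, and DIABLO relieves that restraint.

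In broody ovaries the death receptor gene *FAS* and the effector caspase gene *CASP6* were lower, while the survival gene *BCL2L1*, the mitochondrial *DIABLO* and the CIDE domain gene *CIDEA* were higher. *CASP9* and *BCL2* did not pass the test. Mean levels of the 5 genes that passed differed between the groups by factors of 1.67 to 2.14, in one direction or the other. Levels are in FPKM as computed by the authors, which scales the fragments of a transcript by its length and by the mapped fragments of the library, so that levels of different genes are per length. Differences are broody minus reproductive in log2(FPKM + 1), fitted with limma over the 11377 genes that reached 1 FPKM in 3 or more libraries, and a gene passed at a Benjamini-Hochberg adjusted p under 0.05. The lowest value of any of the 7 genes was 3.91 FPKM, so none of them entered the test through 1 group alone. The counts were 3 higher, 2 lower and 2 not called of 7 tested (71.4% called), where 41.9% of all tested genes were called, 29.9% as higher and 12.0% as lower. Since the genes were chosen with earlier results of these data known, their share is a description and no test. The median difference of the 7 genes was -0.07, against 0.23 over all tested genes.

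**Figure D1:**
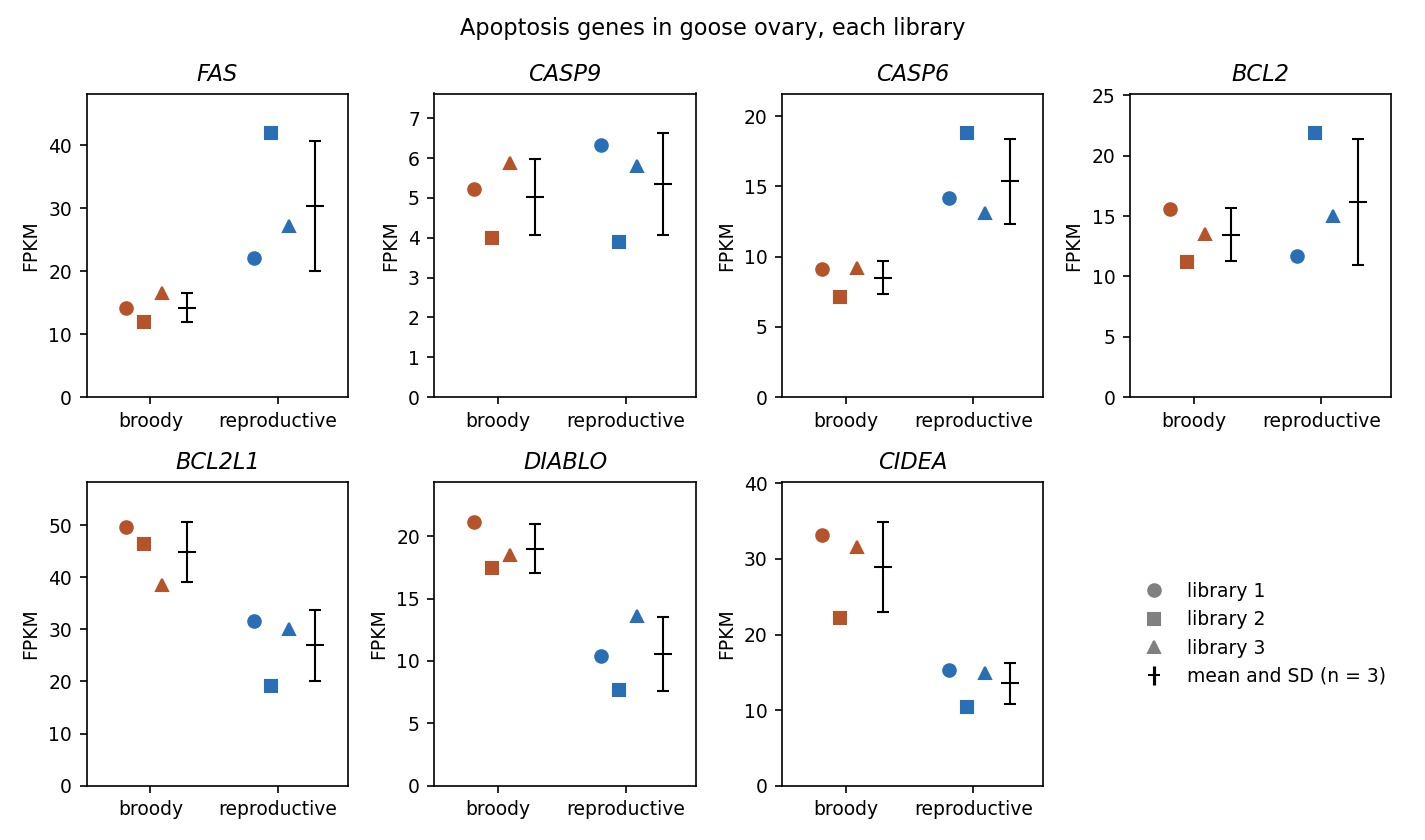
FPKM of the 7 genes in each library (vertical axes start at 0 and differ between panels), with broody libraries left of reproductive libraries and the mean and SD of each group (n = 3) beside the points. The groups are apart for *FAS*, *CASP6*, *BCL2L1*, *DIABLO* and *CIDEA* and overlap for *CASP9* and *BCL2*.

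*FAS* (gene identifier 106030038), the receptor for FAS ligand, stood at 14.1, 11.9 and 16.5 FPKM in broody libraries 1 to 3, against 22.1, 41.9 and 27.1 FPKM in reproductive libraries 1 to 3. Every broody library lay below every reproductive library, and reproductive 2 was far above the other libraries. The mean fell to 14.2 ± 2.28 FPKM in broody libraries, against 30.4 ± 10.3 FPKM in reproductive libraries (SD, n = 3 each), a difference of -1.01 ± 0.24 (SE; limma adjusted p = 0.0203). Without reproductive 2 the difference was -0.76 (adjusted p = 0.0231).

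*CASP6* (106038643), an effector caspase known for cleaving nuclear lamins, had 9.14, 7.14 and 9.21 FPKM in broody libraries, against 14.2, 18.8 and 13.1 FPKM in reproductive libraries. The broody libraries were again all below the reproductive ones, with reproductive 2 the highest. Means were 8.50 ± 1.18 FPKM in broody and 15.4 ± 3.01 FPKM in reproductive libraries (SD, n = 3 each), and the difference was -0.78 ± 0.18 (SE; limma adjusted p = 0.0194). *CASP9* (106040238), the initiator caspase of the mitochondrial route, had 5.22, 3.998 and 5.88 FPKM in broody libraries and 6.33, 3.91 and 5.81 FPKM in reproductive libraries. Its groups overlapped almost fully, and its difference of -0.07 had a 95% interval of -0.56 to 0.43 (limma adjusted p = 0.814). That sign turned to 0.064 without broody 2 and to 0.049 without reproductive 1.

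*BCL2* (106039908) and *BCL2L1* (106047170) encode BCL2 and BCL-XL, proteins of the outer mitochondrial membrane that hold back cell death. *BCL2L1* had 49.7, 46.5 and 38.5 FPKM in broody libraries, against 31.6, 19.2 and 30.1 FPKM in reproductive libraries. All broody libraries exceeded all reproductive ones, and reproductive 2 was the lowest. Means were 44.9 ± 5.79 FPKM in broody and 27.0 ± 6.80 FPKM in reproductive libraries (SD, n = 3 each). The difference of 0.74 ± 0.21 (SE) passed with the FPKM as deposited (limma adjusted p = 0.0301), but not with median-ratio scaling (0.49, adjusted p = 0.0686), upper-quartile scaling (0.48, adjusted p = 0.0735) or quantile normalization (0.48, adjusted p = 0.0771).

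*BCL2* had 15.6, 11.2 and 13.5 FPKM in broody libraries and 11.7, 21.9 and 15.0 FPKM in reproductive libraries. The groups overlapped, since reproductive 1 lay near the lowest broody library. The difference of -0.22 had a 95% interval of -0.77 to 0.33 (limma adjusted p = 0.471), and it was 0.010 without reproductive 2. The interval holds both a fall and a smaller rise of *BCL2*, and it does not show that the level was equal in both groups.

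*DIABLO* (106031128), a mitochondrial protein that binds inhibitor of apoptosis proteins once released, had 21.2, 17.4 and 18.5 FPKM in broody libraries, against 10.4, 7.64 and 13.6 FPKM in reproductive libraries. The groups did not overlap, and the reproductive libraries spread more widely. Means were 19.02 ± 1.94 FPKM in broody and 10.5 ± 2.97 FPKM in reproductive libraries (SD, n = 3 each), a difference of 0.82 ± 0.21 (SE; limma adjusted p = 0.0224). Without broody 3 the difference was 0.84 with an adjusted p of 0.0516.

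*CIDEA* (106034981) encodes a protein with a CIDE domain, shared with the subunits of the apoptotic DNA nuclease, and in mammals is best known at the lipid droplets of brown fat. It had 33.2, 22.1 and 31.5 FPKM in broody libraries, against 15.3, 10.4 and 14.9 FPKM in reproductive libraries. All broody libraries exceeded all reproductive ones, and library 2 was the lowest of each group. Means were 29.0 ± 5.98 FPKM in broody and 13.5 ± 2.75 FPKM in reproductive libraries (SD, n = 3 each). The difference of 1.04 ± 0.21 (SE; limma adjusted p = 0.0173) was close in size to that of *FAS*, with the opposite sign.

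The groups did not overlap for 5 of the 7 genes, and they did not overlap for 59.5% of all tested genes. Broody libraries lay wholly above for 3 of the 7 (41.3% of all tested genes) and wholly below for 2 (18.2%). Each of the 7 genes was represented by a single transcript, so these values do not depend on how reads were divided among transcripts of a gene. Set against the median of all tested genes, the differences were -1.24 for *FAS*, -1.01 for *CASP6*, -0.45 for *BCL2*, -0.30 for *CASP9*, 0.51 for *BCL2L1*, 0.59 for *DIABLO* and 0.81 for *CIDEA*. No sign turned with median-ratio scaling, upper-quartile scaling or quantile normalization. All 5 calls were lost when broody 1 or broody 2 was left out, with limma adjusted p of 0.0651 to 0.103. The unadjusted p of these 5 genes was 0.000885 to 0.0354. In either fit only 1 of all tested genes passed. An unadjusted p under 0.05 was reached by 4571 of them without broody 1 and 4686 without broody 2.

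**Figure D2:**
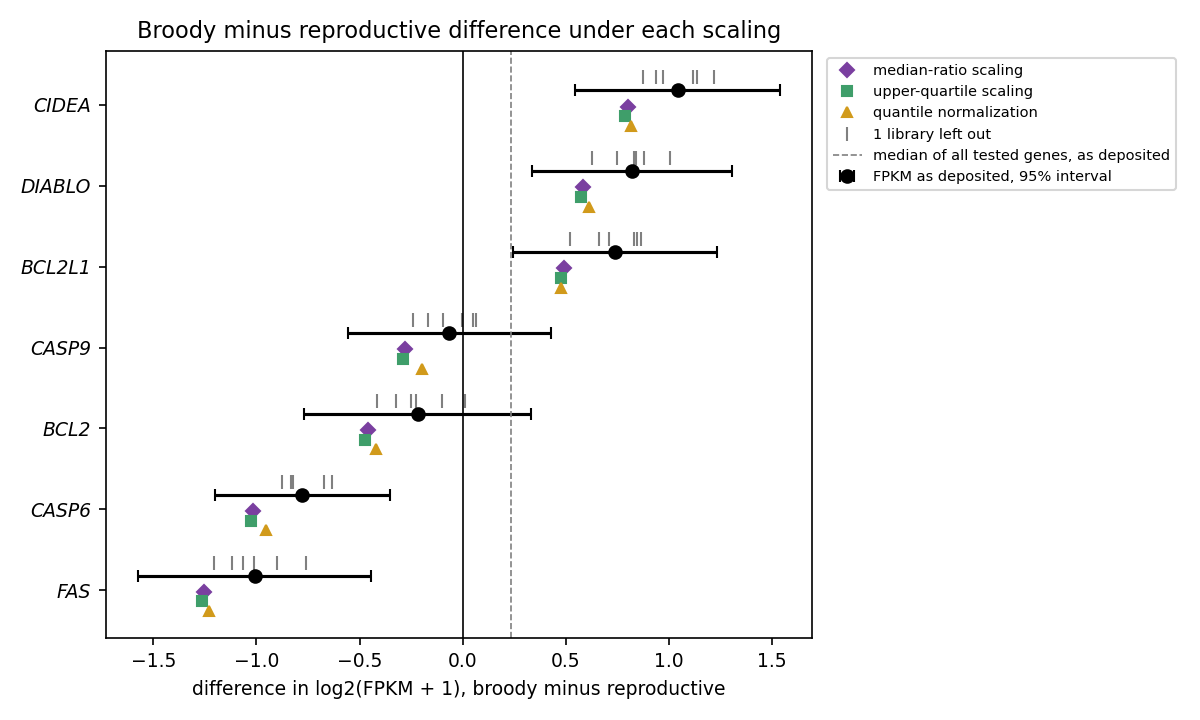
Difference in log2(FPKM + 1), broody minus reproductive, of the 7 genes: black points with 95% intervals use the FPKM as deposited, coloured symbols other scalings of the libraries, and grey ticks leave out 1 library each. The scalings move all 7 genes to the left, and the ticks of *CASP9* and *BCL2* lie on both sides of 0.

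The order of the 7 genes by level is given as a description. In broody libraries the means ran from *BCL2L1* (44.9 FPKM) through *CIDEA* (29.0), *DIABLO* (19.02), *FAS* (14.2), *BCL2* (13.5) and *CASP6* (8.50) down to *CASP9* (5.03). *BCL2L1*, *CIDEA* and *DIABLO* held ranks 1, 2 and 3 in each broody library, whereas *FAS* and *BCL2*, neighbours in this order, had overlapping ranges. In reproductive libraries *FAS* had the highest mean (30.4 FPKM), followed by *BCL2L1* (27.0), *BCL2* (16.2), *CASP6* (15.4), *CIDEA* (13.5), *DIABLO* (10.5) and *CASP9* (5.35). There each gene overlapped with its neighbour in this order from *FAS* down to *DIABLO*, while *DIABLO* and *CASP9* were apart. *CASP9* was the lowest of the 7 in all 6 libraries. By mean level *BCL2L1* stood at percentile 84.0 of the tested genes in broody and 76.1 in reproductive libraries, and *FAS* at percentiles 50.5 and 79.2 in the same order.

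Ratios between genes within a library do not change when all its genes are scaled by a common factor, as in median-ratio or upper-quartile scaling. Quantile normalization can change them. With FPKM as deposited, 6 such ratios were compared. *BCL2L1* was 3.53, 3.89 and 2.33 times the level of *FAS* in broody libraries, against 1.43, 0.457 and 1.11 times in reproductive libraries. The groups did not overlap, and in reproductive 2 *FAS* exceeded *BCL2L1*. The log2 ratio differed by 1.82, and by 1.33 without reproductive 2. *BCL2* was 1.11, 0.938 and 0.821 times the level of *FAS* in broody libraries, against 0.529, 0.522 and 0.552 times in reproductive libraries. The reproductive ratios lay close together although *BCL2* and *FAS* each varied widely among those libraries.

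Next, *BCL2* was set against *BCL2L1*, the other survival gene. *BCL2* was 0.314, 0.241 and 0.352 times the level of *BCL2L1* in broody libraries, against 0.370, 1.14 and 0.497 times in reproductive libraries, a log2 difference of -0.99. This narrowed to -0.52 without reproductive 2, and broody 3 and reproductive 1 were almost level. *DIABLO* was 1.57, 1.22 and 0.718 times the level of *XIAP*, an inhibitor of caspases that DIABLO protein binds, in broody libraries. The same ratio was 0.559, 0.565 and 0.552 in reproductive libraries, below all broody values. *XIAP* itself overlapped between the groups, at 13.5, 14.2 and 25.7 FPKM in broody and 18.6, 13.5 and 24.6 FPKM in reproductive libraries.

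Among the caspases, *BCL2* over *CASP6* stood at 1.71, 1.57 and 1.47 in broody libraries, against 0.824, 1.16 and 1.14 in reproductive libraries, and the groups were apart. *CASP9* was 0.335, 0.198 and 0.339 times the level of *APAF1* in broody libraries and 0.380, 0.302 and 0.367 times in reproductive libraries. These overlapped, with a log2 difference of -0.30 that was -0.045 without broody 2. The ratios were chosen with earlier results of these data known and are given as descriptions. An exact permutation test of 3 against 3 libraries cannot give a p under 0.1, so no ratio could pass and nothing is read from it. For *BCL2L1* over *FAS* the gap between the groups was fixed by the separation of each gene.

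**Figure D3:**
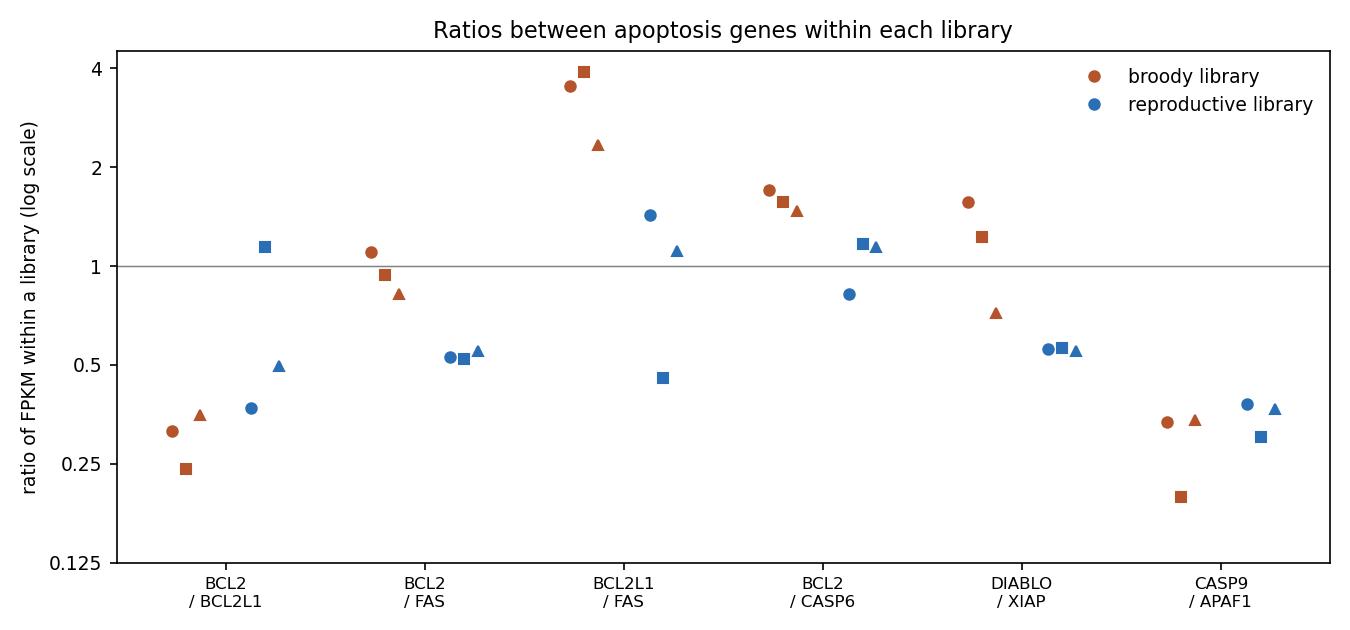
Ratio of the FPKM of 2 genes within each library, on a log scale, with broody libraries left of reproductive libraries in each pair of columns (circle, square and triangle are libraries 1, 2 and 3). Broody and reproductive libraries are apart for 5 of the 6 ratios, among which *BCL2L1* over *FAS* has the widest gap between group means, 1.82 on the log2 scale.

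Of 70 other genes of the pathway, set out in lists by role, 54 were found and 50 tested, and 11 were higher and 5 lower in broody libraries (32.0% called, against 41.9% of all tested genes). Their median difference was 0.0043, against 0.23 for all tested genes. With median-ratio and likewise with upper-quartile scaling 4 were higher and 10 lower. Of all 11377 tested genes, 1897 were then higher and 2136 lower with median-ratio scaling (35.4% called). With upper-quartile scaling 1776 were higher and 2189 lower (34.9% called). With quantile normalization 7 of the pathway genes were higher and 8 lower, where 36.3% of all tested genes were called. A filter on a mean of at least 1 FPKM left out *PMAIP1*. Of the 49 pathway genes then tested, 11 were higher and 4 lower, where 41.3% of all tested genes were called.

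Among 9 tested death receptors and ligands, 1 was higher and 1 lower, with a median difference of -0.20. *TNFRSF1A*, the main receptor of tumour necrosis factor, had 14.5, 14.1 and 17.5 FPKM in broody libraries, against 35.7, 44.5 and 31.3 FPKM in reproductive libraries. It lay lower in every broody library, like *FAS*, and fell by 1.21 (limma adjusted p = 0.0125). *NGFR*, a neurotrophin receptor with a death domain, was higher in every broody library, at 13.1 ± 0.763 FPKM, against 6.16 ± 1.22 FPKM in reproductive libraries (SD, n = 3 each), and rose by 0.99 (adjusted p = 0.0149). *FASLG*, the ligand of FAS, was below the level required for the test, at 0.352 ± 0.166 FPKM in broody and 0.299 ± 0.180 FPKM in reproductive libraries. *TNFSF10*, the death ligand TRAIL, varied widely, with 3.77, 3.03 and 15.8 FPKM in broody and 28.0, 50.6 and 7.25 FPKM in reproductive libraries. Broody 3 and reproductive 3 overlapped, and the difference of -1.75 did not pass (adjusted p = 0.0933), though it did without broody 3 (adjusted p = 0.0496) or without reproductive 3 (adjusted p = 0.0230). *TNFSF15*, another ligand of this family, had a difference of -0.65 (adjusted p = 0.0689) and passed as lower with median-ratio scaling (-0.83, adjusted p = 0.0303), upper-quartile scaling (-0.84, adjusted p = 0.0312) and quantile normalization (-0.76, adjusted p = 0.0323).

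Of 9 tested adaptors and regulators of caspase-8 and caspase-2, 2 were higher and 2 lower, with a median difference of -0.01. *FADD*, which joins FAS to caspase-8, had 18.8, 18.6 and 21.5 FPKM in broody libraries, against 13.5, 10.5 and 13.9 FPKM in reproductive libraries. The adaptor was thus higher in every broody library while its receptor gene *FAS* was lower in each. *FADD* rose by 0.60 (limma adjusted p = 0.0224) and *CRADD*, the adaptor of caspase-2, by 0.75 (adjusted p = 0.0275), but neither passed with median-ratio scaling (adjusted p of 0.0644 and 0.0517) or upper-quartile scaling, and *FADD* did not with quantile normalization (adjusted p = 0.0505). *TRADD*, the adaptor of TNFRSF1A, fell by 0.58 (adjusted p = 0.0298) and *FAF1*, a FAS-associated factor, by 0.59 (adjusted p = 0.0489), with a difference of -0.37 without reproductive 2. Neither of the 2 other caspases tested, *CASP2* and *CASP10*, passed with limma, and 1, *CASP10*, had an unadjusted p under 0.05. *CASP2*, the caspase that CRADD serves, had a difference of -0.35 (adjusted p = 0.129), and passed as lower with median-ratio scaling (adjusted p = 0.0398) and upper-quartile scaling (adjusted p = 0.0400).

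*CASP10*, a caspase of the death receptor route related to caspase-8, had 44.3, 51.6 and 45.9 FPKM in broody libraries, against 29.7, 22.7 and 44.1 FPKM in reproductive libraries. The broody libraries were higher, but broody 1 and reproductive 3 were almost level, and the difference of 0.59 did not pass (limma adjusted p = 0.0729). Without reproductive 3 it was 0.84 (adjusted p = 0.0133). Most of its level came from 1 transcript, with a mean of 36.9 FPKM in broody and 21.7 FPKM in reproductive libraries. *CFLAR*, an inhibitor of caspase-8, had 22.3, 11.9 and 17.1 FPKM in broody and 18.6, 35.2 and 19.003 FPKM in reproductive libraries, with overlapping groups (adjusted p = 0.238). It was named for its place beside caspase-8 after its values were seen. Of the calls on receptors, ligands and adaptors, none was left without broody 1 or without broody 2 (adjusted p of 0.0562 to 0.132). *FADD*, *TRADD* and *FAF1* also missed without broody 3 (0.0572 to 0.0997), *CRADD* and *FAF1* without reproductive 1 (0.0641 and 0.0598), *CRADD*, *TRADD* and *FAF1* without reproductive 2 (0.0515 to 0.0718) and *TRADD* without reproductive 3 (0.0505).

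In the mitochondrial route, 1 of 7 tested BCL2-family death effectors and BH3-only proteins was higher and 1 lower, with a median difference of 0.04. *BID*, the BH3-only protein that caspase-8 cuts to reach the mitochondrion, had 125, 67.9 and 97.5 FPKM in broody libraries, against 60.6, 39.3 and 55.6 FPKM in reproductive libraries. It was higher in every broody library and rose by 0.87 (limma adjusted p = 0.0331), but did not pass with median-ratio scaling, upper-quartile scaling or quantile normalization. *PMAIP1*, the BH3-only protein NOXA, stood at 0.336 ± 0.0283 FPKM in broody libraries, against 1.33 ± 0.261 FPKM in reproductive libraries (SD, n = 3 each). It is the lower gene of that count, with a difference of -0.80 (adjusted p = 0.0168). It reached 1 FPKM in the reproductive libraries alone and had to differ to enter the test, so that nothing is read from its call. With a mean of at least 1 FPKM required instead it was not tested, and the list had 1 higher and 0 lower. With a pseudocount of 0.1 its difference was -1.70. *BOK*, an effector that opens the mitochondrial membrane, and *BNIP3L*, a mitochondrial receptor of autophagy, had differences of 0.54 and -0.32 (adjusted p of 0.0868 and 0.0543), and *BNIP3L* passed as lower with each of the 3 scalings (adjusted p of 0.0189 with median-ratio scaling). Of 2 other survival genes tested, *BCL2A1* fell by 0.68 (adjusted p = 0.0248), with 5.001, 4.64 and 5.11 FPKM in broody and 6.73, 8.54 and 10.5 FPKM in reproductive libraries. *MCL1* did not pass (-0.21, adjusted p = 0.520), and its difference was 0.05 without reproductive 1. With FPKM as deposited the BCL2-family survival genes thus split, with *BCL2L1* higher, *BCL2A1* lower, and *BCL2* and *MCL1* overlapping between the groups. *BCL2L1* did not pass with any of the 3 scalings. Of 5 genes of mitochondrial release and the apoptosome, *CYCS*, cytochrome c, rose by 0.86 and *HTRA2*, a protease released with it, by 0.48 (adjusted p of 0.0344 and 0.0483). Neither passed with any of the 3 scalings. The scaffold *APAF1* had 17.7 ± 2.33 FPKM in broody and 15.2 ± 1.95 FPKM in reproductive libraries (SD, n = 3 each), a difference of 0.21 that did not pass and turned to -0.03 with median-ratio scaling, -0.04 with upper-quartile scaling and -0.01 with quantile normalization. The nuclease gene *ENDOG* had a difference of 0.39 (adjusted p = 0.166) and passed without reproductive 3 (adjusted p = 0.0453).

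Downstream, 2 of 5 inhibitors of apoptosis were higher and 3 were not called, with a median difference of 0.25. *BIRC7*, livin, had 186, 193 and 238 FPKM in broody libraries, against 101, 28.3 and 111 FPKM in reproductive libraries. It rose by 1.56 (limma adjusted p = 0.0366), but did not pass with median-ratio or upper-quartile scaling. Reproductive 2 was far below the other libraries, and without it the difference was 0.94 (adjusted p = 0.0126). *BIRC5*, survivin, which also serves in cell division, rose by 0.91 (adjusted p = 0.0230), to 102 ± 10.1 FPKM in broody libraries, against 55.4 ± 17.5 FPKM in reproductive libraries (SD, n = 3 each). *BIRC2* and *BIRC6* had differences of 0.25 and -0.14 and did not pass, although *BIRC6* passed as lower with each of the 3 scalings and *BIRC2* turned to -0.01 with upper-quartile scaling and -0.02 with quantile normalization. *DFFB*, the apoptotic DNA nuclease, rose by 0.75 (adjusted p = 0.0321), but did not pass with median-ratio or upper-quartile scaling. Its inhibitor *DFFA* had a difference of 0.54 (adjusted p = 0.0523) and passed without reproductive 3 (adjusted p = 0.0341). *PARP1*, a DNA repair enzyme that caspases cleave, had a difference of -0.02 with an adjusted p of 0.903, and 0.01 without reproductive 1. Of 8 stress and survival regulators, 2 were higher and 6 not called. *TP63*, which in mammals guards the genome of oocytes, had 20.0, 16.5 and 18.7 FPKM in broody libraries, against 7.68, 1.99 and 9.75 FPKM in reproductive libraries, and rose by 1.57 (adjusted p = 0.0286), or by 1.00 without reproductive 2 (adjusted p = 0.0125). *PDCD10*, a partner of stress kinases, rose by 0.92 (adjusted p = 0.0242). *FOXO1*, a transcription factor that insulin signalling holds out of the nucleus, had a difference of -0.40 (adjusted p = 0.0891) and passed as lower with median-ratio scaling (adjusted p = 0.0406) and upper-quartile scaling (adjusted p = 0.0382). *PDCD4*, an inhibitor of translation, had a difference of 0.25 (adjusted p = 0.135), which was -0.0055 with median-ratio scaling and -0.02 with upper-quartile scaling.

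Each of the 10 genes called in these mitochondrial and downstream lists, *PMAIP1* among them, missed the threshold without broody 1 and without broody 2 (adjusted p of 0.0657 to 0.162). *BID*, *DFFB*, *BIRC7*, *CYCS*, *HTRA2*, *BCL2A1* and *TP63* also missed it without broody 3 (0.0557 to 0.0915), *DFFB*, *BIRC5* and *PDCD10* without reproductive 1 (0.0511 to 0.0753), *BID*, *DFFB*, *CYCS* and *HTRA2* without reproductive 2 (0.0618 to 0.102) and *CYCS* and *HTRA2* without reproductive 3 (0.0688 and 0.0873). With the main transcript of each gene in place of the sum, *BID*, *DFFB*, *BIRC7*, *CYCS*, *HTRA2* and *TP63* missed it (0.0549 to 0.118).

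**Figure D4:**
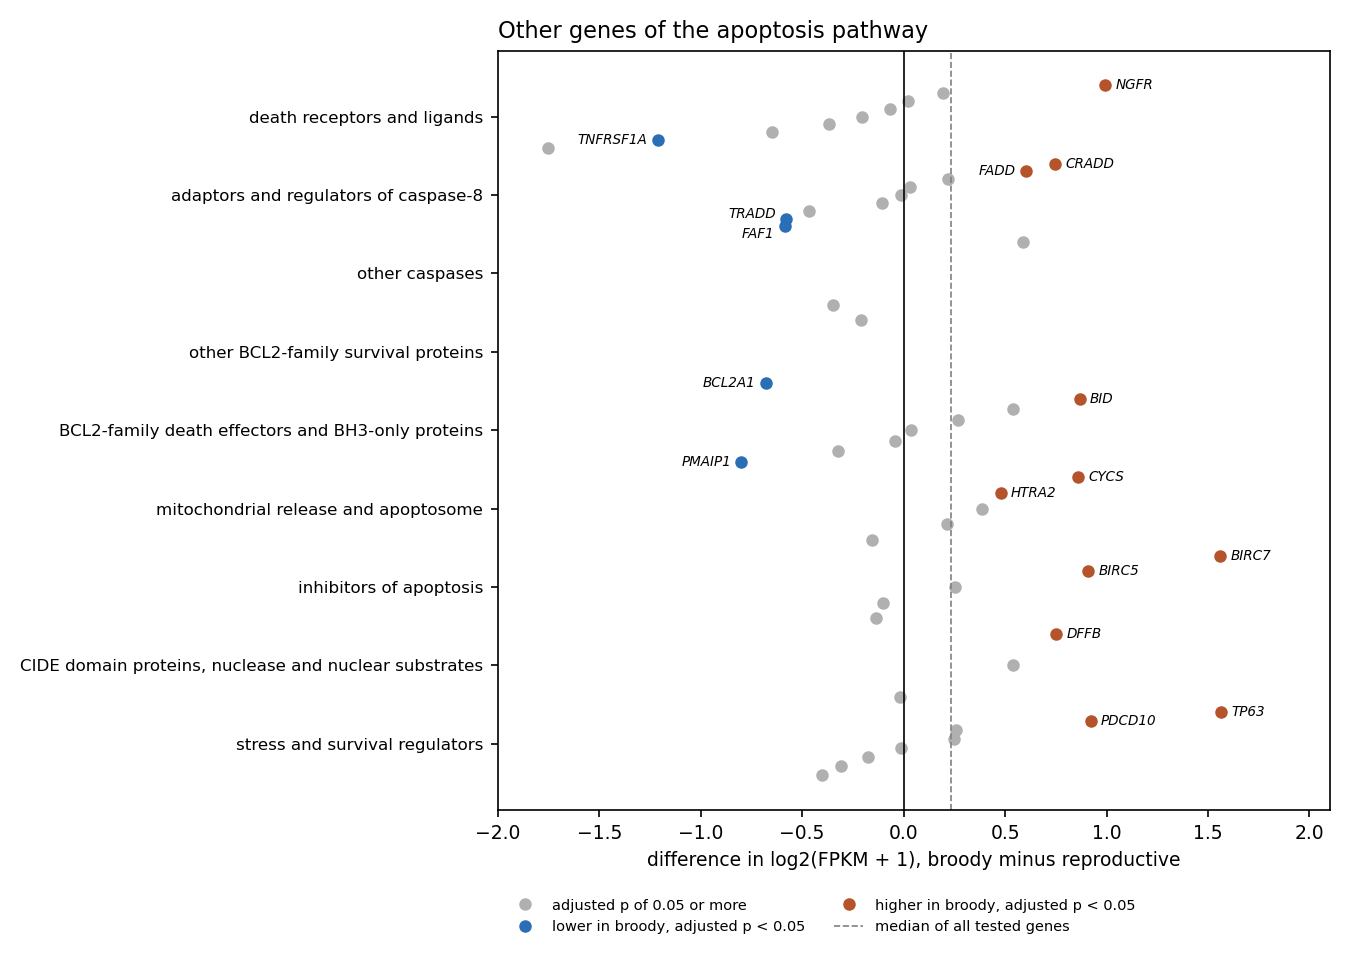
Difference in log2(FPKM + 1), broody minus reproductive, of the 50 other pathway genes tested, 1 point a gene, by role (vertical position within a row only separates points). With FPKM as deposited, the 11 genes higher in broody libraries are spread over 7 roles and the 5 lower ones over 4 roles. Of the 5, *PMAIP1*, the only lower gene of its role, entered the test through the reproductive libraries alone.

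Marker genes of several cell types differed in level between the groups, and in bulk samples fewer cells of a type and less RNA per cell cannot be told apart. Of all tested genes, 29.9% were higher and 12.0% lower in broody libraries, and the marker counts stand beside these shares. All 10 tested oocyte markers were higher in broody libraries, and the summed level of the 10 was 1368 to 1575 FPKM in broody and 172 to 750 FPKM in reproductive libraries. Granulosa markers were higher for 3 (*AMH*, *FOXL2* and *NR5A1*) and lower for 1 (*INHBA*) of 7 tested. *FSHR*, *CYP19A1* and *GATA4* overlapped between the groups and were not called. The 9 granulosa genes found summed to 394 to 500 FPKM in broody and 128 to 245 FPKM in reproductive libraries. The largest part of the broody sums was *AMH*, which averaged 241 FPKM in broody and 57.2 FPKM in reproductive libraries. All 7 smooth muscle markers found were lower, with sums of 298 to 932 FPKM in broody and 3106 to 6968 FPKM in reproductive libraries, and all 10 macrophage markers were lower, with sums of 222 to 386 FPKM in broody and 534 to 1000 FPKM in reproductive libraries. Of 8 endothelial markers, 1 was higher and 6 lower, with sums of 103 to 123 FPKM in broody and 180 to 234 FPKM in reproductive libraries. Of 9 theca markers 3 were lower and 6 not called, with sums of 269 to 602 FPKM in broody and 632 to 979 FPKM in reproductive libraries. The largest part of the theca sums was *DCN*, which averaged 199 FPKM in broody and 568 FPKM in reproductive libraries. The steroid synthesis genes *CYP17A1*, *STAR* and *CYP11A1*, placed in the theca list, overlapped between the groups (limma adjusted p of 0.742, 0.774 and 0.362). *HSD3B1*, another steroid synthesis gene of that list, was among the 3 lower (-1.16, limma adjusted p = 0.0444). It had 23.7, 30.5 and 64.9 FPKM in broody libraries, against 68.0, 68.6 and 118 FPKM in reproductive libraries. The granulosa and theca lists were set by gene name. Which goose follicle cells express these genes, or *CYP19A1* of the granulosa list, was not tested. No marker of these lists was at 0 in all libraries, but *INHA* of the granulosa list came near it. It averaged 0.0157 FPKM in broody and 0.0178 FPKM in reproductive libraries and was not tested. Reproductive 2 had the highest smooth muscle and macrophage sums and the lowest oocyte and granulosa sums. The largest part of the macrophage sums was *CD74*, at 773 FPKM in reproductive 2. *CD74*, *LY86*, *CSF1R* and *CYBB* were highest in reproductive 2, *MPEG1*, *SPI1*, *C1QA*, *C1QB* and *TLR4* in reproductive 3, and *MARCO* in reproductive 1. Reproductive 2 also had the highest *FAS*, *CASP6* and *BCL2* and the lowest *BCL2L1*, *DIABLO*, *CIDEA* and *CASP9* of the 6 libraries. The part of these markers' cell types in the differences of the apoptosis genes was not tested.

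**Figure D5:**
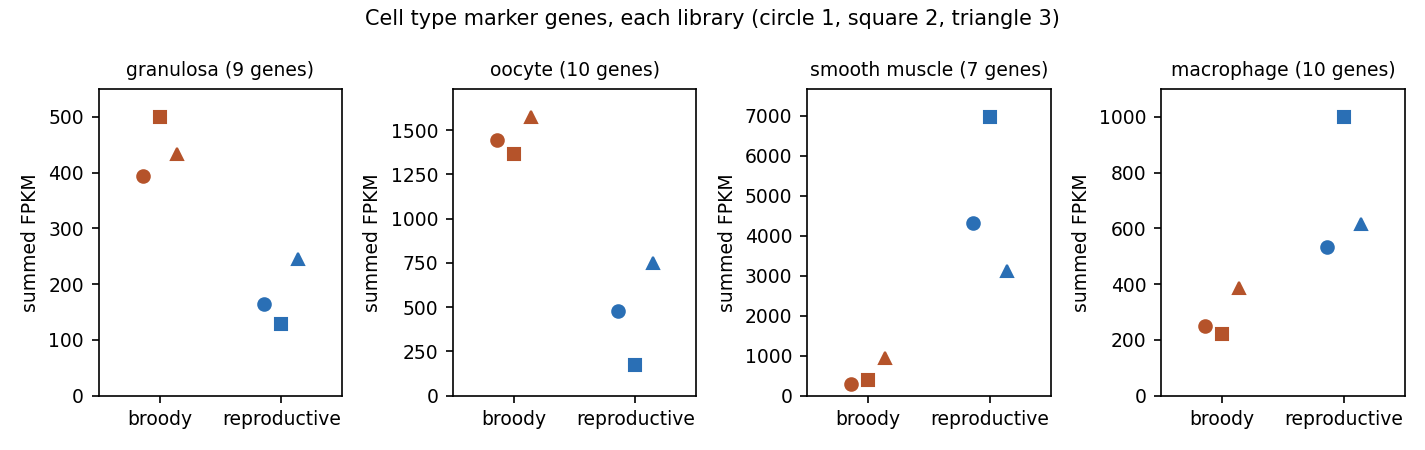
Summed FPKM of the marker genes of 4 cell types in each library (vertical axes start at 0 and differ between panels; broody left of reproductive). Broody sums lie above reproductive ones for granulosa and oocyte markers and below them for smooth muscle and macrophage markers, with reproductive 2 at the extreme in each panel. The largest part of the granulosa sums in broody libraries is *AMH*, and that of the macrophage sums is *CD74*.

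Lymphocyte markers had 1 higher and 1 lower of 6 tested, where 29.9% of all tested genes were higher and 12.0% lower. Their sums were 33.5 to 43.7 FPKM in broody and 31.5 to 41.2 FPKM in reproductive libraries. The largest part of the broody sums was the higher gene, *BLNK*, which averaged 19.1 FPKM in broody and 9.16 FPKM in reproductive libraries. The lower gene, *CD2*, averaged 2.54 FPKM in broody and 7.14 FPKM in reproductive libraries. The sums thus mix genes of opposite direction and do not show that lymphocyte RNA was level between the groups. Fat cell markers, listed because *CIDEA* is a fat cell gene in mammals, had 1 higher and 2 not called of 3 tested, with a median difference of -0.34. Their sums, of 78.5 to 93.9 FPKM in broody and 56.7 to 79.7 FPKM in reproductive libraries, came mostly from the higher gene, *LPL*, which averaged 69.8 FPKM in broody and 40.0 FPKM in reproductive libraries. *ADIPOQ* and *PPARG* had differences of -0.89 and -0.34 and did not pass (limma adjusted p of 0.118 and 0.289). The tissue is labelled ovary, while the series' design text speaks of oviduct. Of 7 oviduct gland markers, 2, *TF* and *LYZ*, were found, and *OVAL*, *OVALX*, *OVALY*, *AVD* and *OVST* were not. The 2 had sums of 1.19 to 5.16 FPKM in broody and 2.56 to 72.5 FPKM in reproductive libraries, the highest in reproductive 2. That highest sum came mostly from *TF*, at 71.1 FPKM, with *LYZ* at 1.40 FPKM. *TF* stood at 2.27 and 3.76 FPKM in reproductive 1 and 3 and was not called (limma adjusted p = 0.274). Whether any library held oviduct tissue was not tested.

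The genes whose profile over the 6 libraries was most like that of each gene were found by the root mean square difference of log2(FPKM + 1) after each profile was centred on its own mean. For *FAS* these were *RGS7BP* (0.0336) and *RPS3* (0.0598), for *CASP6* *RPS6KA5* (0.0255) and *LARP6* (0.0501), and for *CASP9* *WWC2* (0.0736) and *SLC39A14* (0.0886). For *BCL2* they were *MOXD1* (0.0732) and *SSBP2* (0.0846), for *BCL2L1* *CBLN1* (0.0370) and *PSME3* (0.0508), for *DIABLO* *MOV10* (0.0313) and *PHF19* (0.0320), and for *CIDEA* *XRCC5* (0.0755) and *TTLL4* (0.0859). *RPS6KA5*, a stress kinase gene, followed *CASP6* closely, with 11.9, 9.49 and 12.0 FPKM in broody and 18.9, 25.1 and 17.7 FPKM in reproductive libraries. The measure describes these 6 libraries and is no test.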

How the data were processed

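The deposited table holds FPKM per transcript for 33089 transcripts in each of the 6 libraries, computed by the authors. The tools HISAT2 and StringTie, with no version, are on record per the submitters' processing notes. Build, annotation and strandedness were not given in the sources used here. No coordinates are therefore printed, and overlapping antisense genes cannot be told apart. FPKM carry no counts, the depth is unknown, and FPKM sums per library ranged from 319866 to 346625.

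Transcripts were summed per gene identifier. Names came from the deposited table for 6611 genes and from a RefSeq gene table of the Taihu goose assembly for 5742 more. Genes with at least 1 FPKM in 3 libraries were fitted on log2(FPKM + 1) with limma 3.58.1 in R 4.3.3 (eBayes with a trend, no covariate). Differences understate changes of genes at low FPKM. The test was run on simulated data in which genes varied independently and a small share was changed. That run has no shift shared by many genes, so it does not bear on library scaling. Members, lists and ratios were chosen with earlier results of these data known. All members were named, with up to 4 tested genes of smallest p per pathway list. Per member, the 2 nearest profiles among tested genes with a name were also given. Alternatives covered pseudocount, filter, scaling, trend, replicate block, main transcript and each library left out. Some genes of the lists are not reported here.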

Additional observations from a re-analysis of the deposited data

How the results depend on the processing

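With FPKM as deposited, 3400 genes were higher and 1366 lower in broody libraries, and the count of higher genes was 1897 with median-ratio scaling, 1776 with upper-quartile scaling, 2200 with quantile normalization, 2225 with the replicate number as a block and 2180 with the main transcript only. The count of lower genes was 2136 with median-ratio and 2189 with upper-quartile scaling. With 1 library left out, higher genes ranged from 0 to 3765 and lower genes from 1 to 1225. Among the 7 apoptosis genes, higher calls then ranged from 0 to 3 and lower calls from 0 to 2. In each such fit 5 of the 7 had an unadjusted limma p under 0.05. So did 4571 to 6206 of the 11377 tested genes. Of the other pathway genes, 11 were higher and 5 lower, among the 5 *PMAIP1*, which entered the test through the reproductive libraries alone. Higher calls were 4 with median-ratio scaling, 4 with upper-quartile scaling, 7 with quantile normalization, 7 with the replicate block and 5 with the main transcript only. Lower calls were 10 with median-ratio scaling, 10 with upper-quartile scaling, 8 with quantile normalization, 3 with the replicate block and 3 with the main transcript only. With 1 library left out, they ranged from 0 to 12 for higher and from 0 to 6 for lower.

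The signs of *FAS*, *CASP6*, *BCL2L1*, *DIABLO* and *CIDEA* did not turn under any alternative, but their groups did not overlap, so leaving out 1 library could not turn them. *FAS*, *CASP6* and *CIDEA* missed the threshold only without broody 1 or broody 2. The difference of *CASP9* ranged from -0.24 to 0.064 and that of *BCL2* from -0.41 to 0.010 with 1 library left out. The cause of these changes was not tested. Whether replicate numbers pair the samples cannot be told. Deviations from the group means correlated at 0.11, -0.16 and -0.20 between libraries of the same number, for 1, 2 and 3. These values cannot decide it, since the deviations within a group of 3 are bound to cancel. With the replicate block the adjusted p of *BCL2L1* was 0.0513, and no other call among the 7 genes was lost. Among the other pathway genes named, *CRADD*, *TRADD*, *FAF1*, *CYCS*, *HTRA2* and *PDCD10* missed the threshold with the block (adjusted p of 0.0560 to 0.0964). With no filter *FAF1*, *BIRC7* and *HTRA2* missed it (0.0538 to 0.0673) and *BNIP3L* passed as lower (0.0440). *HTRA2* missed it with eBayes without trend (0.0510), and *TRADD* and *FAF1* with the main transcript only (0.0746 to 0.0798). The ratios were recomputed with each library left out after the data had been seen. Only that of *CASP9* over *APAF1* overlapped between the groups, and its log2 difference ranged from -0.43 to -0.045. Depth is unknown, so no limit of detection can be given for *FASLG* or other genes at low FPKM.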
